A study of Mus musculus with 2 samples.

Results

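The cells described here are macrophages with a high share of MHC class II transcripts from B16F10 tumours, a transplanted mouse melanoma. They were chosen by a rule on the UMI counts (unique molecular identifiers, 1 per captured transcript) of each droplet barcode: at least 500 UMIs, at most 10% mitochondrial, under 0.4% from the melanocyte genes Pmel, Mlana, Dct and Tyrp1, no UMI of Cd3d, Cd3e or Cd3g, at least 3 UMIs of C1qa, C1qb and C1qc together, and at least 0.2% of UMIs from H2-Aa, H2-Ab1, H2-Eb1 and Cd74. The rule found 518 MHC II-high macrophages among 1271 macrophages and 18252 barcodes in all, 318 of them in the first of the 2 sequenced libraries and 200 in the second. Macrophages under the 0.2% threshold, 232 in library 1 and 521 in library 2, are called MHC II-low and serve for comparison.

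The mice were of 2 genotypes, LysM-cre x RelloxP/loxP, in which Rel (c-Rel, an NF-kB subunit) is deleted in myeloid cells, and LysM-cre x Rel+/+ as wild type. Both genotypes carry the Cre recombinase under the lysozyme M promoter, which is active in macrophages, monocytes and neutrophils. B16F10 cells had been injected 2 weeks before collection, viable CD45+ cells were sorted from 5 pooled tumours per genotype, and each pool gave 1 Chromium 3′ library. Barcodes end in 1 or 2, and the sources used here do not tie these endings to a genotype; the libraries are therefore called library 1 and library 2, no effect of the deletion is read from them, and genotype, pool and library cannot be told apart. With 1 library per genotype there is no replicate, so no p-value is given; every interval is a 95% interval for counting error only, which PCR copies and differences between mice can exceed.

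Macrophages display peptides from ingested proteins on MHC class II molecules to CD4 T cells. The α and β chains (H2-Aa, H2-Ab1, H2-Eb1) assemble on the invariant chain Cd74, cathepsins degrade that chain, and the H2-DM heterodimer (H2-DMa with H2-DMb1 or H2-DMb2) exchanges its remnant for peptide. The transactivator Ciita, induced by interferon gamma, turns these genes on through the X and Y boxes of their promoters, so MHC class II is used as a sign of interferon gamma-exposed tumour macrophages and also of monocyte-derived cells that recently entered the tumour. Tumour macrophages low in MHC class II are known for scavenger receptors, lipid handling and tissue-remodelling genes.

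The promoters of H2-Eb1, used by the rule, and H2-DMb1, not used by it, are shown because both hold the X and Y box cores through which MHC class II genes are switched on; the Gbp2 promoter is shown as an interferon-induced gene that was higher in these macrophages without being an MHC gene. Each runs 5′ to 3′ from 250 bases before to 50 bases after the RefSeq gene start on the plus strand of GRCm38.p6: H2-Eb1 at chr17:34305617-34305916, H2-DMb1 at chr17:34152941-34153240 and Gbp2 at chr3:142620413-142620712. Capitals mark matches, on either strand, to an X box core (AGNAACNG) or a Y box core (CCAAT) in the H2 promoters and to an interferon response element core (GAAA, any 2 bases, GAAA) in Gbp2.
H2-Eb1: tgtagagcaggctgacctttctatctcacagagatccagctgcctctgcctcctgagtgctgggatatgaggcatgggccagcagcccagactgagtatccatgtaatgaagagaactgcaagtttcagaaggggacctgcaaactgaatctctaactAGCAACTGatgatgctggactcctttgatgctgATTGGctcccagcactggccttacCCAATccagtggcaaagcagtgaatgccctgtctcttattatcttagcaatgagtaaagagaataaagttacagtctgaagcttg
H2-DMb1: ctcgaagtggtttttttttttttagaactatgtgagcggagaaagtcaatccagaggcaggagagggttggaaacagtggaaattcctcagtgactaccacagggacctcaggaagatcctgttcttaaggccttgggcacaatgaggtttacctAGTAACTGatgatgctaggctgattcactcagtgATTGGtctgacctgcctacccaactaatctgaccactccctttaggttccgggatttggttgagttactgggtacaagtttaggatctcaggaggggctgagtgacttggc
Gbp2: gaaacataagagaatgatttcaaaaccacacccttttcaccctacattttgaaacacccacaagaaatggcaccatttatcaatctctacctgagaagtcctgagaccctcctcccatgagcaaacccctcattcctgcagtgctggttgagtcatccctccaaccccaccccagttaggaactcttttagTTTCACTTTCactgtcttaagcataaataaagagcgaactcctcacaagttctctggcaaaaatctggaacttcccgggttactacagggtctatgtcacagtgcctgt
The X box match starts 92 bases before the start of H2-Eb1 and 95 bases before that of H2-DMb1, and a reverse-strand Y box match follows at 59 and 61 bases. These letters are common: of 32851 mouse promoter windows of the same length in the RefSeq table, 17.4% held the X box core, 37.4% the Y box core, 6.51% both and 3.44% the interferon response element core. Of the genes found higher in MHC II-high macrophages below, 35 of 42 matched the table; of their 40 windows 3 held the X box core, 17 the Y box core, 2 both and 3 (Fcgr4, Gbp2 and Slamf8) the interferon response element core, against 4, 9, 2 and 1 of 21 windows from 14 of 19 genes found lower. The interferon response element was added to the search after the data had been seen. A match is a description of these letters and not of binding; neither the window of H2-Aa nor the 2 windows of H2-DMa held an X box core, and the H2-Aa window and 1 of the H2-DMa windows held a Y box core.

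The label macrophage was checked against genes that the rule did not use. MHC II-high macrophages carried all 18 genes of a macrophage identity list, at a summed 20229 CPM (a gene's UMIs per 1000000 UMIs of the class) in library 1 and 23117 CPM in library 2, against 29096 and 23097 CPM in MHC II-low macrophages. Apoe, the apolipoprotein that exports cholesterol from macrophages and the gene of the list with the most UMIs, had 8330.1 against 14336 CPM in library 1 and, in library 2, 12715 against 11247 CPM, on opposite sides in the libraries. Lyz2, lysozyme, had 3241 against 3401 CPM in library 1 and, in library 2, 2153 against 1792 CPM. The signalling adaptor gene Tyrobp had 2419.9 against 2203 CPM in library 1 and, in library 2, 2254 against 1708 CPM. C1q transcripts, which every cell had to carry, summed to 10303 and 8940 CPM in MHC II-high and 10530 and 8114 CPM in MHC II-low macrophages of libraries 1 and 2. Of 8 conventional dendritic cell markers, Flt3, Zbtb46 and Cd209a had no UMI in any of the 4 groups, and none of the 4 fibroblast genes (Col1a1, Col1a2, Col3a1 and Dcn) had one. A UMI of at least 1 of the other dendritic markers was found in 56 of 318 MHC II-high and 11 of 232 MHC II-low macrophages of library 1, and in 14 of 200 and 37 of 521 in library 2.

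Markers of other cells were present at levels that bear on what follows. The 7 monocyte markers, with Ly6c2, Plac8, Ccr2 and Chil3 among them, were all detected and summed to 1092 CPM in MHC II-high and 400.1 CPM in MHC II-low macrophages of library 1, and to 530 and 151 CPM in those of library 2. The 6 neutrophil markers summed to 87.1 against 25.8 CPM in library 1 and, in library 2, 945 against 216 CPM. The 8 dendritic markers summed to 56.6 against 13.9 CPM and to 32.8 against 25.9 CPM, the 8 B cell markers to 41.3 against 28.8 CPM and to 30.6 against 23.2 CPM, and the 10 T and NK markers to 35.0 against 37.7 CPM and to 19.7 against 12.6 CPM. The 6 melanoma markers, some of them capped by the rule, summed to 253 against 267 CPM in library 1 and, in library 2, 768 against 858 CPM. Although CD45+ cells had been sorted, 3947 of 7688 barcodes in library 1 and 6584 of 10564 in library 2 passed the UMI and mitochondrial limits with at least 0.4% of their UMIs from melanocyte genes, so melanoma RNA was abundant in both libraries. The libraries shared 3609 barcode sequences; 12 and 4 MHC II-high macrophages of libraries 1 and 2 had such a sequence, and for 0 and 4 of them the same sequence had over 10 times as many UMIs in the other library.

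The rule's own values describe the class and test nothing. Among macrophages, 57.8% (53.6% to 62.0%, 318 of 550) passed the MHC class II threshold in library 1 and 27.7% (24.5% to 31.2%, 200 of 721) in library 2. Their median MHC class II share was 1.09% of UMIs in library 1 (quartiles 0.605% and 2.00%) and 0.526% in library 2 (0.310% and 1.04%), and 4 macrophages of library 1 and 1 of library 2 were at 5% or more. The distribution was continuous across the threshold. In library 1, 19 macrophages lay between 0.2% and 0.25% and 21 between 0.15% and 0.2%; in library 2 these numbers were 26 and 41. The nearest values on either side were 0.203% and 0.196% in library 1 and 0.201% and 0.199% in library 2. Of MHC II-low macrophages, 39.7% in library 1 and 46.4% in library 2 had no MHC class II UMI at all.

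**Figure D1:**
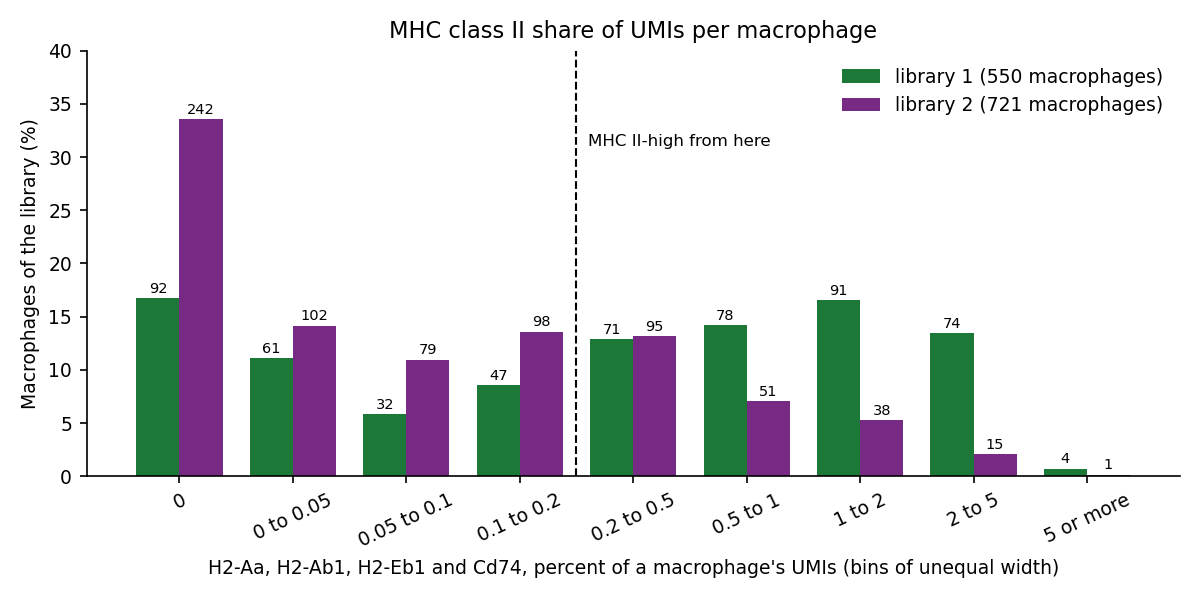
Percent of each library's macrophages (y axis) in bins of the summed share of H2-Aa, H2-Ab1, H2-Eb1 and Cd74 in a barcode's UMIs (x axis, bins of unequal width); the number of macrophages stands on each bar and the dashed line marks the 0.2% threshold. Library 1 had 91 macrophages from 1% to 2% and library 2 had 38, while 92 and 242 macrophages had none of these UMIs.

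The members carried 1113678 UMIs in library 1 and 456934 in library 2, with medians of 2830.5 and 1863 UMIs per cell; MHC II-low macrophages carried 1007310 and 1507805 UMIs, with medians of 3783.5 and 2579. Because members were shallower, class calls were repeated after each barcode with at least 1000 UMIs had been thinned to 1000. Of MHC II-high macrophages, 97.0% of 300 in library 1 and 91.6% of 178 in library 2 stayed on their side of the threshold, as did 89.1% of 220 and 90.3% of 485 MHC II-low macrophages. T cell barcodes (at least 2 Cd3 UMIs) passed the same 0.2% threshold in 6.16% of 649 cases in library 1 and 5.43% of 368 in library 2, and melanoma barcodes in 0.532% and 0.486%. Median depths were 1375 and 1364.5 UMIs for T cell barcodes and 5813 and 10206.5 UMIs for melanoma barcodes; the part of free MHC class II RNA in the class was not tested.

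The levels of the rule's 4 MHC class II genes follow from the choice of cells. Cd74 had 5515 CPM in MHC II-high and 237 CPM in MHC II-low macrophages of library 1, and 3123 and 197 CPM in those of library 2. H2-Ab1 had 2901 CPM in MHC II-high and 107 CPM in MHC II-low macrophages of library 1, and 1657 and 126 CPM in those of library 2. H2-Aa had 2303 against 69.5 CPM in library 1 and, in library 2, 1464 against 72.3 CPM. H2-Eb1 had 2035 against 42.7 CPM in library 1 and, in library 2, 1254 against 51.1 CPM. In MHC II-high macrophages each of the 4 genes had more CPM in library 1 than in library 2.

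Outside the rule's genes, MHC II-high macrophages had more transcripts of both chains of the peptide-loading H2-DM heterodimer, of the interferon gamma-induced genes Cxcl9, Gbp2, Ly6a and Ly6e, and of the monocyte genes Ccr2, Plac8 and Chil3, with fewer transcripts of Pf4, Folr2, Gas6 and Fabp4. Apart from the monocyte markers, of which all 3 tested were called, most tested genes of the lists these belong to were not called. A gene was tested where the classes together held 50 UMIs or more in library 1 and likewise in library 2. Of 4340 such genes, 42 were at least 2 times higher in MHC II-high macrophages in both libraries separately, which is 0.968% of those tested, and 19 were at least 2 times lower, 0.438%; these are called higher or lower below. The median log2 ratio of all tested genes was 0.01 in library 1 and -0.04 in library 2. A gene's place in this comparison is not independent of the rule where the gene follows MHC class II in the same cells.

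**Figure D2:**
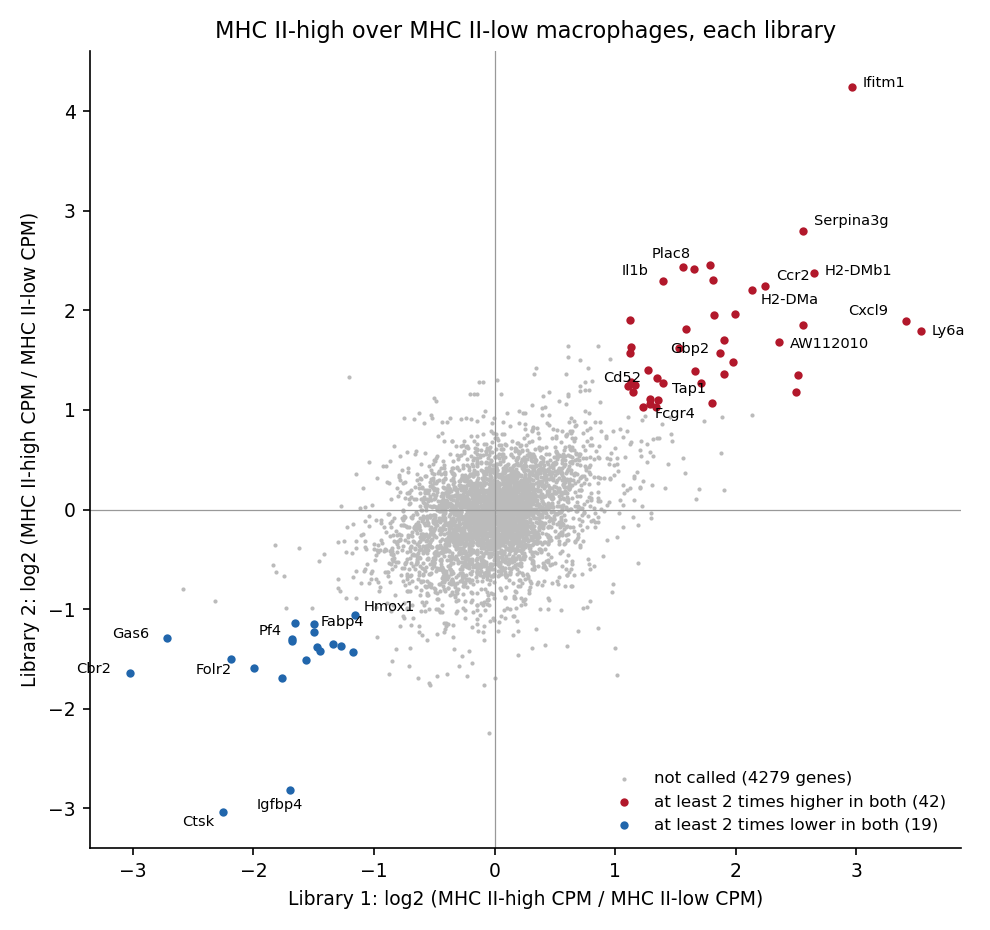
Log2 ratio of MHC II-high over MHC II-low CPM in library 1 (x axis) and library 2 (y axis) for 4340 genes; red points are the 42 genes at least 2 times higher in both libraries, blue points the 19 at least 2 times lower and grey points the rest. Of the coloured genes, Ly6a has the highest ratio in library 1 and Ifitm1 in library 2, while Cbr2 has the lowest in library 1 and Ctsk in library 2.

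Among genes of peptide loading onto MHC class II, the 2 that were called are the chains of H2-DM. H2-DMa had 393 CPM in MHC II-high and 89.3 CPM in MHC II-low macrophages of library 1, and 260.4 and 56.4 CPM in those of library 2. Its ratio was 4.40 (3.50 to 5.59) in library 1 and 4.62 (3.47 to 6.18) in library 2. H2-DMb1 had 531 CPM in MHC II-high and 84.4 CPM in MHC II-low macrophages of library 1, and 271 and 52.4 CPM in those of library 2. Its ratio was 6.29 (5.00 to 7.99) in library 1 and 5.18 (3.88 to 6.96) in library 2. Both genes were several times higher in MHC II-high macrophages of each library, and none of the intervals overlapped between classes. H2-DMb1 and H2-DMb2 are near-identical neighbours, so reads may have been split between them; H2-DMb2 had 21 against 2 UMIs in library 1 and 9 against 1 in library 2. Of the other 4 tested members of the list, none was called. Cathepsin S, the main protease that trims the invariant chain, is encoded by Ctss, which had 2308 against 2024 CPM in library 1 and, in library 2, 2672 against 1871 CPM. Cathepsin L has the same role in other cells, and its gene Ctsl had 966 against 1759 CPM in library 1 and, in library 2, 1173 against 1943 CPM; the ratios were 0.549 and 0.604 in libraries 1 and 2, on the lower side in both. Ciita, the master transactivator, fell under the count minimum and is given, like H2-DMb2, after its values were seen. It had 47 UMIs in MHC II-high and 2 in MHC II-low macrophages of library 1, a ratio of 21.3 (5.57 to 181). In library 2 it had 12 against 0 UMIs, a ratio of 13.2 when the 0 is set to a floor of 3 UMIs for the class. That ratio follows from the floor and is not a lower limit.

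MHC class I presentation genes, most of them also induced by interferon gamma, had ratios above 1 in both libraries for 12 of 13 tested genes, although only 1 was called. The median log2 ratio of the list was 0.88 in library 1 and 0.54 in library 2, beside 0.01 and -0.04 for all tested genes. The share of all tested genes above 1 in both libraries is not given, so the 12 genes are a description only. Tap1, a subunit of the peptide transporter into the endoplasmic reticulum, was the called gene and had 197 CPM in MHC II-high and 74.5 CPM in MHC II-low macrophages of library 1, and 131 and 54.4 CPM in those of library 2. Its ratios were 2.64 (2.02 to 3.48) in library 1 and 2.41 (1.70 to 3.41) in library 2. The classical heavy chain gene H2-K1 had 1495 against 871 CPM in library 1 and, in library 2, 1114 against 826 CPM. H2-D1, the other classical heavy chain gene, had 912 against 636 CPM in library 1 and, in library 2, 766 against 539 CPM. The shared light chain gene B2m had 925 against 557 CPM in library 1 and, in library 2, 1103 against 771 CPM. These 3 abundant genes were 1.35 to 1.72 times higher, with intervals above 1 in both libraries, and therefore below the 2-fold limit. The chaperone gene Calr was the exception in direction, with ratios of 1.22 and 0.890.

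Of 11 tested interferon gamma response genes, 4 were called higher and none lower, and the list median was 0.67 and 0.72 on the log2 scale. Cxcl9, a chemokine that attracts CXCR3-bearing T cells, had 1186 CPM in MHC II-high and 111 CPM in MHC II-low macrophages of library 1, and 582 and 157 CPM in those of library 2. Its ratio was 10.7 (8.79 to 13.1) in library 1 and 3.70 (3.10 to 4.43) in library 2, so it differed more in library 1. After thinning to 1000 UMIs, 35.3% of MHC II-high and 5.00% of MHC II-low macrophages of library 1 had a Cxcl9 UMI, and 27.5% and 7.63% in library 2, while T cell barcodes, which should lack it, had one in 2.69% and 1.22%. The guanylate-binding protein gene Gbp2, an interferon-induced GTPase of cell-autonomous defence, had 614 CPM in MHC II-high and 164 CPM in MHC II-low macrophages of library 1, and 271 and 83.6 CPM in those of library 2, with ratios of 3.75 and 3.25. Ly6a, which encodes the surface protein Sca-1, had 1003 CPM in MHC II-high and 86.4 CPM in MHC II-low macrophages of library 1, and 282 and 81.6 CPM in those of library 2. Its level was similar between libraries in MHC II-low macrophages and not in MHC II-high ones, and the class ratio was 11.6 (9.33 to 14.6) in library 1 and 3.46 (2.68 to 4.47) in library 2. Ly6e, a relative of Ly6a, had ratios of 3.94 and 2.78. Ly6a is also a T cell gene: 40.3% and 18.5% of thinned MHC II-high macrophages had a Ly6a UMI, 45.7% and 37.1% of T cell barcodes, and 0.654% and 0.189% of melanoma barcodes.

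Other interferon gamma genes did not reach the limit. Cxcl10, a second CXCR3 ligand, had 403 against 306 CPM in library 1 and, in library 2, 169 against 76.3 CPM, and its ratios were 1.32 and 2.21. Irf1, an interferon-induced transcription factor, had 157 against 106 CPM in library 1 and, in library 2, 65.7 against 52.4 CPM. Irf8, a myeloid transcription factor, had 341 against 241 CPM in library 1 and, in library 2, 214 against 219.5 CPM. The receptor gene Ifngr1 had 141 against 112 CPM in library 1 and, in library 2, 94.1 against 65.0 CPM. None of the 11 tested type I interferon genes was called, with list medians of 0.30 and 0.21. The antiviral gene Rsad2, had ratios of 1.23 and 0.601 in libraries 1 and 2, on opposite sides of 1, and the ubiquitin-like modifier gene Isg15 had 2.41 and 1.39.

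**Figure D3:**
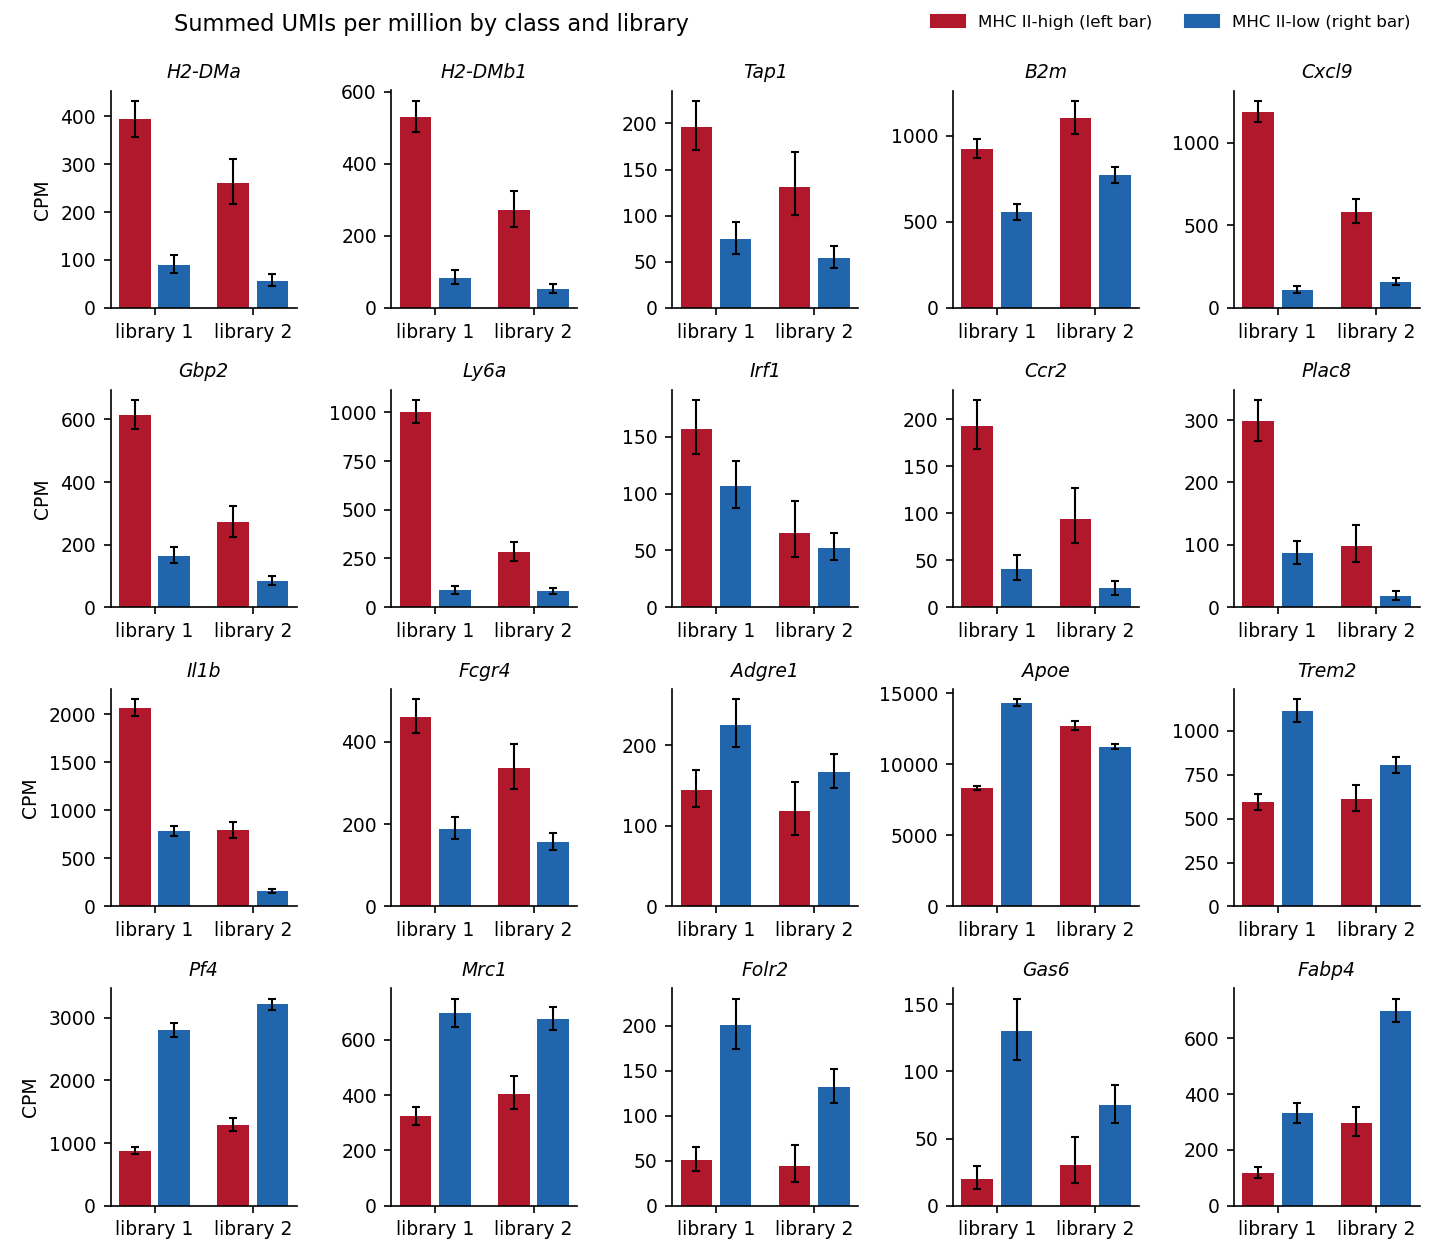
CPM (y axis, from 0) of 20 genes in MHC II-high (left bar of each pair) and MHC II-low macrophages (right bar) of each library, with 95% Poisson intervals. The upper 2 rows hold genes with more CPM in MHC II-high macrophages in both libraries, such as Cxcl9 at 1186 and 582 CPM, and the lowest row genes with fewer, such as Pf4 at 873 and 1287 CPM.

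Genes of monocytes and early monocyte-derived cells formed another group among those called higher. Ccr2, the receptor through which monocytes leave the blood, had 193 CPM in MHC II-high and 40.7 CPM in MHC II-low macrophages of library 1, and 94.1 and 19.9 CPM in those of library 2. Its ratio was 4.74 (3.38 to 6.80) in library 1 and 4.73 (2.90 to 7.81) in library 2. Plac8, abundant in classical monocytes, had 298 CPM in MHC II-high and 86.4 CPM in MHC II-low macrophages of library 1, and 98.5 and 17.9 CPM in those of library 2. The ratios of Plac8 were 3.45 (2.72 to 4.42) in library 1 and 5.50 (3.34 to 9.22) in library 2, again on the same side in both libraries. Chil3, a chitinase-like protein of monocytes and activated macrophages, had ratios of 2.18 and 2.96. These 3 genes belong to the monocyte marker list whose sum is given above, so they are part of that measurement and not a second one. The leukotriene B4 receptor gene Ltb4r1 had ratios of 3.52 and 4.95. Chosen after their values were seen, the integrin αX gene Itgax, used to mark CD11c+ myeloid cells, had ratios of 2.42 and 2.64, and Ms4a4c, a membrane protein gene of monocytes and lymphocytes, 5.72 and 2.56.

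Il1b, the gene of interleukin-1β, was the only called member of 9 tested inflammatory cytokine genes. It had 2066 CPM in MHC II-high and 783 CPM in MHC II-low macrophages of library 1, and 794 and 162 CPM in those of library 2. The class ratios were 2.64 (2.43 to 2.86) in library 1 and 4.91 (4.16 to 5.80) in library 2. The level in MHC II-high macrophages of library 2 resembled that in MHC II-low macrophages of library 1, so its level differed both between classes and between libraries. Il1rn, the interleukin-1 receptor antagonist, had 249.6 against 243 CPM in library 1 and, in library 2, 197 against 166 CPM. Tnf had 523 against 475 CPM in library 1 and, in library 2, 54.7 against 78.9 CPM. Nlrp3, an inflammasome sensor, had 339 against 202 CPM in library 1 and, in library 2, 116 against 85.6 CPM. Neither gene was called. None of 13 NF-kB family and feedback genes was called. Rel itself, the gene deleted in the mutant mice, had 186 CPM in MHC II-high and 101 CPM in MHC II-low macrophages of library 1, and 50.3 and 23.9 CPM in those of library 2, with class ratios of 1.84 and 2.11. Reads from the 3′ end of Rel outside a deleted stretch would still be counted, so these values check no genotype.

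Among receptors for antibody, Fcgr4, an activating Fcγ receptor of macrophages and nonclassical monocytes, was called higher at 462 CPM in MHC II-high and 189 CPM in MHC II-low macrophages of library 1, and 337 and 157 CPM in those of library 2. Its ratios were 2.45 (2.07 to 2.91) in library 1 and 2.15 (1.75 to 2.65) in library 2. The other 5 Fc receptor genes were not called; Fcer1g, the common γ chain, had 4946 against 4234 CPM in library 1 and, in library 2, 4237 against 3721 CPM, and Fcgr3 628 against 551 CPM in library 1 and, in library 2, 556 against 487 CPM. Cd52, a small surface glycoprotein of leukocytes, had the most UMIs of the genes called higher, for which it is named, and had 2706 CPM in MHC II-high and 1064 CPM in MHC II-low macrophages of library 1, and 2254 and 905 CPM in those of library 2; its ratios of 2.54 and 2.49 were close to each other.

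Other genes among the 12 highest ratios belonged to none of these groups, and some were carried by few cells. Ifitm1, an interferon-induced transmembrane protein, had 109 CPM in MHC II-high and 13.9 CPM in MHC II-low macrophages of library 1, and 188 and 9.95 CPM in those of library 2; 1 barcode gave 19.0% of its UMIs in MHC II-high macrophages of library 1 and 27.9% in library 2. Only 41 of 318 and 16 of 200 MHC II-high macrophages had an Ifitm1 UMI, and without the top barcode of each group the ratios were 12.7 and 17.0. Serpina3g, a protease inhibitor induced in activated myeloid and T cells, had 223 CPM in MHC II-high and 37.7 CPM in MHC II-low macrophages of library 1, and 138 and 19.9 CPM in those of library 2, and without the top barcodes its ratios were 7.53 and 7.44. Both genes thus differed between classes also without their most loaded cell. AW112010, an interferon-induced transcript of immune cells, had 1006 against 196 CPM in library 1 and, in library 2, 630.3 against 196 CPM. Plbd1, a phospholipase B-like lysosomal protein gene, had ratios of 5.90 and 3.62, and the survival gene Bcl2a1a, whose near-identical paralogues may share reads, 3.14 and 5.34.

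Of the genes called lower in MHC II-high macrophages, 4 belonged to the lists, Pf4, Folr2, Gas6 and Fabp4. Pf4, a chemokine that many tissue macrophages share with platelets, had 873 CPM in MHC II-high and 2804 CPM in MHC II-low macrophages of library 1, and 1287 and 3215 CPM in those of library 2. Its ratio was 0.311 (0.289 to 0.335) in library 1 and 0.40 (0.367 to 0.436) in library 2; after thinning, 29.0% and 42.7% of MHC II-high macrophages against 73.6% and 76.3% of MHC II-low ones had a Pf4 UMI, with 3.81% and 4.08% of T cell barcodes. It was the only called gene of 18 macrophage identity genes. Folr2, a folate receptor of resident-type tumour macrophages, had 50.3 CPM in MHC II-high and 201 CPM in MHC II-low macrophages of library 1, and 43.8 and 132 CPM in those of library 2, and 3.67% against 18.6% of thinned macrophages in library 1 and 1.69% against 11.1% in library 2 had a UMI of it, beside 0.448% and 0% of T cell barcodes. Gas6, a bridging ligand between dying cells and the Mertk and Axl receptors, had 19.8 CPM in MHC II-high and 130.0 CPM in MHC II-low macrophages of library 1, and 30.6 and 74.9 CPM in those of library 2. Its ratios were 0.152 (0.0920 to 0.240) in library 1 and 0.409 (0.217 to 0.715) in library 2.

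Folr2 and Gas6 were the called genes of 12 tested scavenger and dying-cell receptor genes. The mannose receptor gene Mrc1 had 323 CPM in MHC II-high and 696 CPM in MHC II-low macrophages of library 1, and 405 and 676 CPM in those of library 2; its ratio of 0.465 passed the limit in library 1 and that of 0.598 in library 2 did not. Stab1, a scavenger receptor for modified lipoproteins, had ratios of 0.406 and 0.616, the class A scavenger receptor gene Msr1 0.817 and 0.737, and the C-type lectin gene Clec4a1 2.14 and 1.15, above 1. The list median was -0.28 in library 1 and -0.36 in library 2.

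Of 21 tested lipid and lysosome genes, 15 had ratios below 1 in both libraries and 1 was called lower. Fabp4, a fatty acid-binding protein of macrophages and fat cells, was the called gene and had 118 CPM in MHC II-high and 332 CPM in MHC II-low macrophages of library 1, and 298 and 699 CPM in those of library 2. Its relative Fabp5 had 3725 against 7018 CPM in library 1 and, in library 2, 6091 against 8128 CPM. The lysosomal protease gene Ctsb had 4678 against 7269 CPM in library 1 and, in library 2, 4572 against 6205 CPM. Lgals3, galectin-3, had ratios of 0.831 and 0.808, and the saposin precursor gene Psap 0.918 and 1.02. The list median was -0.47 and -0.31, beside 0.01 and -0.04 for all tested genes. The share of all tested genes below 1 in both libraries is not given, so the 15 genes are a description only.

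Of the 12 lowest ratios, 9 belonged to genes outside the lists, and the lowest mean ratios of all to Ctsk, Cbr2 and Igfbp4. The lysosomal collagen-cleaving protease gene Ctsk had 10 against 43 UMIs in library 1 and 2 against 54 in library 2, with ratios of 0.210 (0.0943 to 0.425) in library 1 and 0.122 (0.0144 to 0.463) in library 2. Cbr2, a carbonyl reductase of resident macrophages, had 15.3 against 124 CPM in library 1 and, in library 2, 32.8 against 102 CPM. Igfbp4, a binding protein of insulin-like growth factors, had 35.9 against 116 CPM in library 1 and, in library 2, 10.9 against 76.9 CPM. F13a1, coagulation factor XIII A chain, had 174 against 482 CPM in library 1 and, in library 2, 214 against 558 CPM. Serpinb6a, an intracellular protease inhibitor, had 188 against 556 CPM in library 1 and, in library 2, 182 against 518 CPM. Ankrd33b, with 13 and 6 UMIs in MHC II-high macrophages, Cela1, Pmp22 and Zdhhc14 completed the set, with ratios from 0.220 to 0.407. Hmox1, the haem-degrading enzyme, was also called, and is named after its values were seen, at 539 CPM in MHC II-high and 1200.2 CPM in MHC II-low macrophages of library 1, and 687 and 1436 CPM in those of library 2.

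Several lists held no called gene. The 12 tested immune suppression genes had medians of 0.25 and 0.19; Arg1, arginase, had 422 against 439 CPM in library 1 and, in library 2, 681 against 1281 CPM, with ratios of 0.962 and 0.531, and Lgals1, galectin-1, had ratios of 0.674 and 0.670. Cd274, encoding PD-L1, led the costimulation and checkpoint ligands with 163 against 80.4 CPM in library 1 and, in library 2, 101 against 76.9 CPM, and its ratios of 2.03 and 1.31 lay on both sides of the limit. Of 19 cell cycle genes, 12 had ratios below 1 in both libraries, a count given without the share of all tested genes. Their list medians were -0.33 and -0.49, beside 0.01 and -0.04 for all tested genes. Mki67, a marker of cycling cells, had 161 against 175 CPM in library 1 and, in library 2, 123 against 189 CPM. The 21 myeloid transcription factors, 23 hypoxia and glycolysis genes, 22 respiratory chain genes, 11 matrix and protease genes, 17 immediate early and heat shock genes and 3 complement genes outside C1q had medians between -0.48 and 0.20. The chemokine list, with Cxcl9 and Ccr2 as its 2 called genes of 19, had medians of 0.01 and 0.29; Ccl8 had ratios of 1.17 and 0.772, Ccl7 0.616 and 0.713 and Cxcl2 1.22 and 1.28.

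Because monocyte genes moved with the class, barcodes with any UMI of Ly6c2, Plac8 or Ccr2 were left out of both classes in an alternative added after the data had been seen. This left 156 and 152 MHC II-high macrophages, and 23 genes were higher and 10 lower among 3544 tested genes. Only 21 of the 42 genes called higher before and 9 of the 19 called lower were still called. Ccr2 and Plac8, called higher before, are left with no UMI by this choice. Cxcl9 then had ratios of 9.29 and 3.55, H2-DMa 3.82 and 4.43, H2-DMb1 4.34 and 4.29, Gbp2 3.85 and 3.07, Il1b 2.26 and 5.13, Ly6a 13.4 and 3.02, Pf4 0.444 and 0.473, and Folr2 0.408 and 0.335. All 8 of these genes were therefore called with these barcodes left out as well. Hmox1, at 0.508 and 0.537, and Serpinb6a, at 0.524 and 0.409, were no longer called, nor was Gas6, at 0.196 and 0.516. Leaving out barcodes with S100a8, S100a9 or Retnlg instead left 29 of the 42 higher and 15 of the 19 lower genes called; S100a8, which had been called higher with ratios of 2.18 and 3.73, is left with no UMI by that choice. The part of contaminating cells or free RNA of other cells in the remaining differences was not tested.

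MHC II-high macrophages were themselves mixed in this respect. Of thinned members, 36.0% (108 of 300) in library 1 and 18.5% (33 of 178) in library 2 carried a UMI of Ly6c2, Plac8 or Ccr2. Cxcl9 was found at similar rates in those with and without such a UMI: 37.0% (27.9% to 46.9%) and 34.4% (27.7% to 41.6%) in library 1, and 24.2% (11.1% to 42.3%) and 28.3% (21.1% to 36.3%) in library 2. Il1b was not: 58.3% against 37.5% in library 1 and 63.6% against 15.2% in library 2, beside 6.05% and 7.35% of T cell barcodes. H2-DMb1 had 47.2% against 30.7% and 36.4% against 17.9%, and H2-DMa 34.3% against 29.2% and 33.3% against 22.8%. Gbp2 had 44.4% against 22.4% and 15.2% against 11.0%, and Ly6a 50.9% against 34.4% and 18.2% against 18.6%. For H2-DMb1, H2-DMa, Gbp2 and Ly6a, only the Gbp2 intervals of library 1 did not overlap (34.9% to 54.3% and 16.7% to 29.0%). Pf4 was found less often in members with a monocyte gene UMI, at 10.2% against 39.6% and 12.1% against 49.7%, as was Mrc1, at 9.26% against 31.2% and 6.06% against 26.2%. Over the same thinned members, the summed monocyte markers and the summed lipid and lysosome genes had Spearman coefficients of -0.51 in library 1 (n = 300) and -0.37 in library 2 (n = 178), and interferon gamma and MHC class I genes 0.40 and 0.30; the cells of each coefficient share a library and each cell's counts sum to the same total.

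Levels were next followed over 5 bins of MHC class II share, the MHC II-low class and 4 bins of members (0.2% to 0.5%, 0.5% to 1%, 1% to 2%, and 2% or more). Since the bins use the rule's values, this is a description. Of 4340 genes, 24 (0.553%) were higher in every bin than in the one before in both libraries and 22 (0.507%) were lower in every bin. The first set included H2-DMb1, Ly6a, Cd52, the interferon-induced nucleic acid sensor gene Zbp1 and the immunoproteasome genes Psmb10 and Psme1; the second included Mrc1, Gas6, Stab1, Trem2 and Abca1 and the lysosomal genes Ctsb, Ctsd and Cd68. These examples were chosen after their values were seen. In library 2 the top bin held 16 macrophages and 22574 UMIs; with all macrophages at 1% or more in 1 bin, 64 genes (1.47%) were higher and 66 (1.52%) lower at every step, among them all 24 and all 22.

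From the lowest to the highest bin, H2-DMb1 had 84.4, 144, 444, 716 and 935 CPM in library 1 and 52.4, 158, 233, 436 and 1107 CPM in library 2. Ly6a had 86.4, 371, 1075, 1083 and 1643 CPM in library 1 and 81.6, 137, 241, 647 and 797 CPM in library 2. Cxcl9 reached 1572 and 946 CPM at 1% or more, and in library 1 most of its climb lay between the second and the third bin, which had 395 and 1299.9 CPM. In the other direction, Mrc1 had 696, 584, 359, 164 and 129.6 CPM in library 1 and 676, 482, 394, 277 and 88.6 CPM in library 2. Ctsb had 7269, 5892, 4943, 4344 and 3091 CPM and 6205, 5319, 4495, 3471 and 930.3 CPM, and Trem2, a lipid-sensing receptor gene, 1112, 858, 591, 559 and 282 CPM and 806, 721, 611, 422 and 133 CPM. For these genes the difference was spread over the bins. At 1% or more, library 2 had 2888 CPM of Ctsb, 356 of Trem2 and 589.8 of H2-DMb1. Median UMIs per cell were also lower at each step, with 2433.5 in the top bin of library 1 and 1237 in that of library 2, against 3783.5 and 2579 in the lowest.

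**Figure D4:**
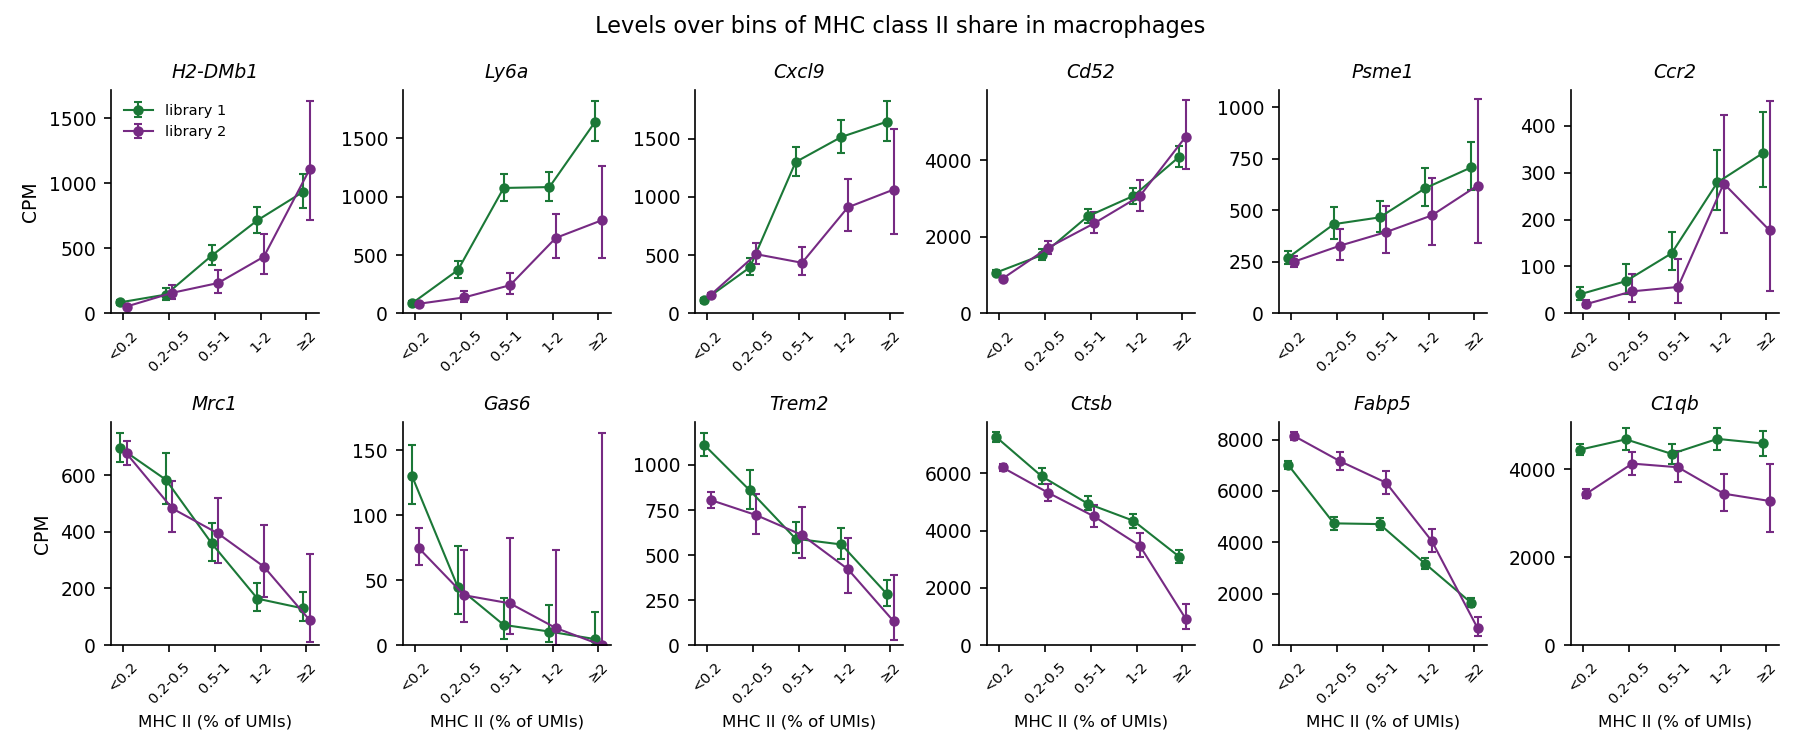
CPM (y axis, from 0) of 12 genes in macrophages binned by MHC class II share of UMIs (x axis), with 95% Poisson intervals, in library 1 and library 2. H2-DMb1 climbed and Ctsb dropped over every bin in both libraries, and the rule's C1qb stayed between 3278 and 4690.1 CPM.

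The last comparison set MHC II-high macrophages of library 1 over those of library 2, as values of 2 libraries and not of the genotypes. Of 3896 genes with at least 50 UMIs over both libraries and at least 20 CPM in 1 of them, 141 were at least 2 times higher in library 1, which is 3.62%, and 47 at least 2 times lower, 1.21%; the median log2 ratio was 0.05. Members of library 1 also had higher MHC class II shares than those of library 2, as given above. The main genes were therefore also compared among members under 1% MHC class II alone (149 in library 1 and 146 in library 2) and among those at 1% or more (169 and 54), an alternative added after the data had been seen.

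A gene could pass this filter through 1 library alone, and library 1 holds more UMIs of members. The counts per list therefore describe the genes tested and support nothing. With no minimum, 828 genes were higher and 1314 lower in library 1, of 10392 tested. Of the 141 genes, 6 were on the inflammatory cytokine list, 6 on the NF-kB list and 11 on the interferon gamma list. Tnf had 523 CPM in library 1 and 54.7 CPM in library 2 (583 and 25 UMIs), a ratio of 9.57 (6.42 to 14.9); in MHC II-low macrophages the ratio was 6.01 (4.91 to 7.41). Tnfsf9, a ligand that costimulates T cells, had 136 and 17.5 CPM, a ratio of 7.80 (3.86 to 18.4), and 7.33 (4.89 to 11.3) in MHC II-low macrophages. Both genes thus differed between libraries in both classes. Among members under 1% and at 1% or more MHC class II, the ratio of Tnf was 7.17 and 29.6, that of Tnfsf9 8.80 and 4.50, and that of Il1b 1.98 and 2.63. All library 2 members together held 25 Tnf and 8 Tnfsf9 UMIs. The split ratios of Tnf and Tnfsf9 therefore rest on very few library 2 UMIs, and their size is uncertain. Of 8 tested inflammatory cytokine genes 6 were higher in library 1, among them Il1b at 2.60 (2.33 to 2.91), Nlrp3 at 2.92 (2.18 to 3.97) and the prostaglandin synthase gene Ptgs2 at 2.51 (1.71 to 3.80). Of 13 NF-kB genes 6 were higher, among them the inhibitor genes Nfkbia at 2.80 (2.46 to 3.19) and Nfkbiz at 3.01 (2.37 to 3.86), the deubiquitinase gene Tnfaip3 at 2.62 (1.80 to 3.93), and Rel.

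Rel had 186 and 50.3 CPM in MHC II-high macrophages of libraries 1 and 2, a ratio of 3.69 (2.39 to 5.96), and 101 and 23.9 CPM in MHC II-low ones, a ratio of 4.24 (2.87 to 6.39). After thinning, 16.7% and 3.93% of MHC II-high macrophages had a Rel UMI, 12.7% and 3.09% of MHC II-low macrophages, and 13.9% and 16.7% of T cell barcodes, in libraries 1 and 2. The 2 macrophage classes were therefore lower in library 2 while T cell barcodes were not. Among members under 1% and at 1% or more MHC class II, the ratio of Rel was 2.93 and 3.98. Rel had fewer CPM than Tnf in library 2 members, so these split ratios also rest on few UMIs and their size is uncertain. No genotype is assigned from these values.

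Of 17 tested interferon gamma genes 11 were higher in library 1. Gbp2 had 614 and 271 CPM, a ratio of 2.26 (1.87 to 2.76), and 1.96 (1.55 to 2.49) in MHC II-low macrophages. Cxcl9 and Ly6a behaved differently between classes: Cxcl9 had a ratio of 2.04 (1.78 to 2.33) in MHC II-high and 0.707 (0.560 to 0.889) in MHC II-low macrophages, and Ly6a 3.55 (2.96 to 4.30) and 1.06 (0.795 to 1.40). Igtp, an interferon-induced GTPase, had 49 and 3 UMIs and a ratio of 6.70 (2.16 to 33.6). Among members under 1% and at 1% or more MHC class II, the ratio of Cxcl9 was 1.80 and 1.66, both under the 2-fold limit, and that of Ly6a 4.28 and 1.94. The peptide-loading list held no called gene of 7, with H2-DMa at 1.51 (1.23 to 1.87) and H2-DMb1 at 1.96 (1.61 to 2.39).

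Of 18 tested immediate early and heat shock genes, 6 were higher in library 1. Immediate early genes are known to respond to tissue digestion as well as to stimuli in the tumour. Egr1 had 541 and 109 CPM, a ratio of 4.94 (3.70 to 6.73), and 11.1 (8.83 to 14.0) in MHC II-low macrophages. Ier2 had a ratio of 3.82 (2.70 to 5.55), Dusp1 2.80 (2.42 to 3.24) and Fos 2.45 (2.19 to 2.74). The phosphatase gene Dusp2, outside the list, had 301 and 61.3 CPM and a ratio of 4.91 (3.33 to 7.50), and Marcksl1, a cytoskeletal regulator, 6.03 (3.44 to 11.5). Of 19 chemokine and receptor genes 5 were higher; Cxcl2, one of them and a neutrophil attractant, had 4786 and 1663 CPM, a ratio of 2.88 (2.67 to 3.11). Among the 12 highest ratios were also 4 haemoglobin genes, Hba-a1, Hba-a2, Hbb-bs and Hbb-bt, of whose UMIs 96.2% to 98.1% came from 1 barcode of library 1; without the top barcode of each library their ratios were 0.549 to 0.957. The growth factor gene Areg had 68 and 4 UMIs and the uridine phosphorylase gene Upp1 51 and 4. Areg was found in only 13 and 2 members of libraries 1 and 2, and 1 barcode of each held 22 and 3 of its UMIs. The part of dissociation or other handling of the 2 samples was not tested.

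On the library 2 side stood the 3 tested neutrophil markers and 2 of 21 tested lipid and lysosome genes. The lipid and lysosome list had a median log2 ratio of -0.23, and of 0.10 in MHC II-low macrophages. S100a9, S100a8 and Retnlg, all neutrophil markers, had 25.1, 36.8 and 4.49 CPM in library 1 and 486, 344 and 98.5 CPM in library 2. Only 16, 24 and 5 of the 200 members of library 2 carried a UMI of them. Gpnmb, a glycoprotein of lipid-laden and phagocytic macrophages, had 287 and 851 CPM, a ratio of 0.338 (0.290 to 0.392), and 0.822 (0.761 to 0.887) in MHC II-low macrophages. Fabp4 was lower in library 1 in both classes, at 0.395 (0.309 to 0.506) and 0.474 (0.418 to 0.537), and the macrophage elastase gene Mmp12 in MHC II-high macrophages alone, at 0.419 (0.358 to 0.491) and 1.15 (1.06 to 1.25). The prostaglandin D synthase gene Ptgds had 31.4 and 105 CPM, and the RNA polymerase subunit gene Polr2l and the lactate dehydrogenase gene Ldhb had ratios of 0.230 and 0.297, with 33.3% and 30.0% of their library 2 UMIs in 1 barcode. Cx3cr1, the fractalkine receptor gene, had a ratio of 0.291 that rested on 1 barcode of library 2 with 89.6% of the UMIs there, and 2.53 without the top barcodes; the resistin-like gene Retnla had 84.6% and 70.2% of its UMIs in 1 barcode of each library. Ss18l2, AC160336.1 and Chchd10 completed the 12 lowest, with ratios of 0.312 to 0.328. The 6 melanoma markers were also higher in library 2, at 253 and 768 CPM in MHC II-high macrophages of libraries 1 and 2. In MHC II-low macrophages they had 267 and 858 CPM. The part of melanoma RNA in the genes on the library 2 side, Gpnmb and Ptgds among them, was not tested.

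**Figure D5:**
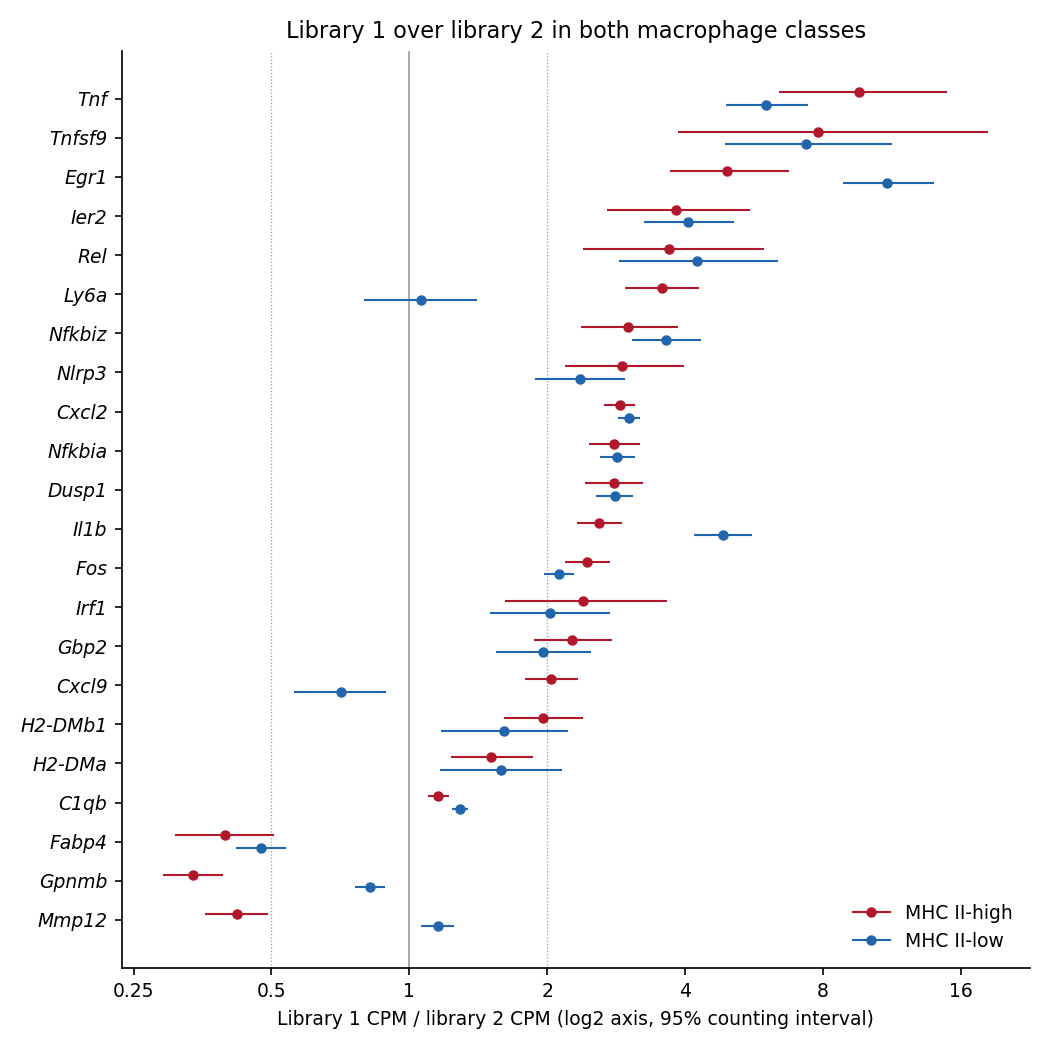
Ratio of library 1 over library 2 CPM (x axis, log2 scale, with 95% counting intervals) for 22 genes in MHC II-high (upper point of each pair) and MHC II-low macrophages (lower point); dotted lines mark 0.5 and 2. Tnf, Tnfsf9, Rel and Egr1 lie right of 2 in both classes, while Ly6a and Cxcl9 do so in MHC II-high macrophages alone.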

How the data were processed

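Single-cell 3′ RNA-seq of CD45+ tumour cells gave 1 library per genotype. Per the submitters' processing notes, Cell Ranger and the build mm10 were used. The header of the deposited matrix names software version 3.0.2. The authors deposited UMI counts of 31053 genes in 18252 barcodes, both libraries in 1 matrix, with 49129318 and 73507228 UMIs in libraries 1 and 2. All column values belong to these samples (0 columns of others). No normalization had been applied to the deposited counts.

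Members were chosen by the stated rule. For each class in each library, a gene's UMI sum was scaled to the total of that class (CPM); 35 duplicated symbols, mitochondrial genes and the rule's genes were left out of the comparison between classes. Poisson, conditional binomial and Clopper-Pearson intervals cover counting error only, and a count of 0 was given a floor of 3 UMIs. Doublets were not removed. The 0.2% threshold, the gene lists and the members were chosen with earlier results of these data known. Genes named are the 12 highest and 12 lowest ratios of each comparison, all called list genes, up to 4 uncalled ones per list with the most UMIs, the rule's genes and Rel; others are said to be chosen after their values were seen. Promoters came from RefSeq (GRCm38.p6). Python 3.11.15, numpy 2.4.6, scipy 1.17.1, pandas 2.3.3 and matplotlib 3.10.9 were used, and scripts were tested on simulated counts. Some single items are not reported here. Alternatives changed the thresholds, filters, weighting, depth and markers.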

Additional observations from a re-analysis of the deposited data

Results flagged for a closer look

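Of 4340 tested genes, 24 had class ratios on opposite sides of 1 in the 2 libraries with counting intervals that leave out 1. Among the genes of the lists alone, 3 of these were also past 1.5 times on both sides, a limit set after the data had been seen; the difference between libraries itself was not tested. Ccnb1, a mitotic cyclin gene, had MHC II-high over MHC II-low ratios of 1.52 in library 1 and 0.386 in library 2. Cenpf, a kinetochore gene of dividing cells, had 2.02 and 0.316. Without the top barcode of each group the ratios were 1.44 and 0.335 for Ccnb1 and 2.15 and 0.308 for Cenpf. Cx3cr1 had 0.433 in library 1 and 2.51 in library 2, where 1 MHC II-high barcode held 43 of its 48 UMIs; without the top barcodes its ratios were 0.668 and 0.339, on the same side.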

How the results depend on the processing

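No paired analysis was possible because there is 1 library per genotype and the labels give no replicate numbers. The main counts were 42 genes higher and 19 lower between classes and 141 higher and 47 lower between libraries, with 57.8% and 27.7% of macrophages in the class. With a threshold of 0.5%, 44.9% and 14.6% were in the class and 48 of 4340 tested genes were lower. With classes from 0.4% and under 0.1% the library 2 share was 23.5% and 37 of 3635 genes were lower. Thinned counts gave 20 and 10 genes of 1431 tested between classes and 72 and 16 of 1373 between libraries. A mean over barcodes gave 31 lower, and leaving out monocyte-gene barcodes 23 and 10 of 3544. A minimum of 10 UMIs gave 122 and 97 genes of 8434 between classes and 279 and 227 of 5684 between libraries. No minimum gave 214 and 138 of 9974 and 828 and 1314 of 10392. A 1.5-fold limit gave 120, 103, 477 and 236 at the main numbers tested, 4340 and 3896. Members at 1% or more MHC class II gave 29 genes of 1709 lower in library 1. Numbers tested differed between these settings, so the counts alone do not compare them.

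Single genes changed side between libraries in 25 cases, given as log2 of library 1 over library 2; the cause was not tested. With a higher C1q limit, Retnla was 0.24. With the top doublet scores left out, Hba-a1 was -1.27, Hbb-bs -0.34 and Hbb-bt -0.46. With thinned counts, Cenpf was -0.17, Cluh -0.016 and Mfsd10 -0.22, and with a mean over barcodes Ccnb1 was -0.040. In members under 1%, Ass1 was -0.059, Cx3cr1 2.40, Retnla 0.82 and Tmem176a -0.45. In members at 1% or more, Batf2 was -0.18, Ccnb1 -0.031, Hba-a1 -2.35, Hba-a2 -0.35, Hbb-bs -2.03, Hbb-bt -2.35, Hgsnat 0.13, Hspa1b -0.35, Lhfpl2 0.65, Med21 -0.031, Myo9a 1.35, Smim3 -0.35 and Tecpr1 0.73. Some of the values at 1% or more are identical, -2.35 for Hba-a1 and Hbb-bt and -0.35 for Hba-a2, Hspa1b and Smim3. All library 2 members together held 4 Hba-a1, 1 Hba-a2, 10 Hbb-bs, 4 Hbb-bt and 11 Ccnb1 UMIs. For these genes the values at 1% or more rest on few UMIs or on the floor of 3, and their side is uncertain. Between classes no called gene that is named changed side. Over all list and named genes, 361 values moved beyond their interval while 3909 did not. Genes under the 50 UMI minimum in either library, Ciita among them, were not among those tested.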
